A study of Homo sapiens with 8 samples.

Results

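The genes described here are 44 nucleolar ribosome assembly factors and subunits of RNA polymerases I and III, chosen by name, and followed over 4 treatments of the human leukemia cell line CUTLL1. Of these, 42 were measured among the 19775 genes tested, each by its brightest probe set over the 8 arrays; EBNA1BP2 and DDX18, both large subunit factors, were not analysed here, since only probe sets annotated to a single gene were used. The measured genes comprised 6 polymerase subunits and treacle, 5 abundant nucleolar proteins, 5 proteins of small nucleolar ribonucleoproteins (snoRNPs), 16 small subunit factors and 10 large subunit factors.

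CUTLL1 is a T-cell acute lymphoblastic leukemia (T-ALL) line in which a chromosomal translocation activates NOTCH1. Cells were treated for 48 h with PF-03084014 at 1 microM, an inhibitor of gamma-secretase, the protease that releases the active form of NOTCH receptors, with the glucocorticoid dexamethasone at 1 microM, with both compounds at those doses (the combination), or with the vehicle DMSO. Each of the 4 groups has 2 Affymetrix arrays, all from this 1 line, and the labels do not say whether replicates were separate cultures, so the p-values speak only to the spread among these samples. The design asks which genes respond to NOTCH inhibition, to the glucocorticoid and to both.

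Ribosomes are built in the nucleolus, where RNA polymerase I transcribes the long precursor of most ribosomal RNA, while RNA polymerase III supplies the remaining small ribosomal RNA. The precursor is modified by snoRNPs, folded by helicases, cut, and packed with ribosomal proteins by separate sets of factors for the small and the large subunit. Many genes of this machinery are known targets of the transcription factor MYC, and MYC is a known target of NOTCH1 in T-ALL, where growth depends on high ribosome output.

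The values are the deposited probe-set intensities on a linear scale; differences are of log2 intensity, with values below 16 set to 16. The verbs rose and fell are kept for genes called by limma, fitted to the 8 arrays, with a Benjamini-Hochberg adjusted p below 0.05 over all 19775 genes; plus-minus values are standard errors of that fit. Combination array 2 stood apart, with a median intensity of 76.3 beside 61.8 to 63.9 on the other 7. The 42 genes also differed more between the 2 combination arrays: their log2 differences had an SD of 0.318, beside 0.0846 to 0.117 in the other 3 groups, and 6 genes lay over 0.5 apart. The main counts and medians that rest on the combination are therefore also given without array 2, as are most single values that it moved by over 1.5 times. The 10 T-lineage markers, CD3D and LCK among them, exceeded an intensity of 100 on every array (sums of 45223 to 52791), whereas the summed markers of B cells, of myeloid cells, of the erythroid and megakaryocyte lineages, and of stroma with epithelium stayed between 311 and 856, with 1 gene of each list over 100 on all arrays except the last, which had 0. In bulk RNA, fewer cells of a type and less RNA per cell cannot be told apart.

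The NOTCH targets that report gamma-secretase inhibition moved as a check of the labels. HES1, a repressor directly induced by NOTCH, had 424 and 342 on the PF-03084014 arrays, 1346 and 1236 with dexamethasone, 309 and 246 with the combination, and 1242 and 1296 with DMSO, and it fell by 1.74 ± 0.15 with PF-03084014 (adjusted p = 0.0202). DTX1 (-2.18 ± 0.083) and NRARP (-2.66 ± 0.14), also NOTCH targets, fell too. The glucocorticoid target TSC22D3 had 5526 and 5478 with dexamethasone and 7836 and 7697 with the combination, against 475 and 430 with PF-03084014 and 506 and 583 with DMSO.

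With PF-03084014 the ribosome biogenesis genes stood lower by a small and widely shared amount. Of 42, 40 had a difference below 0 against DMSO, which 46.8% of all genes and 43.2% of the genes with a mean intensity of at least 100 had, and the median was -0.26, against 0.02 over all genes. In 34 (81.0%) both PF-03084014 arrays lay below both DMSO arrays, against 20.8% of all genes and 24.1% of those 10793 brighter genes, and in 0 did both lie above, against 28% of all genes. None of the 42 was called (0.349% of all genes were called lower and 0.475% higher), although 20 were lower at an unadjusted p under 0.05. The range ran from -0.81 for POLR3G to 0.03 for RRP9, and the smallest p belonged to NOC3L, at -0.42 ± 0.067 (limma adjusted p = 0.0712). Leaving out either combination array, which only changes the estimate of the spread here, made NOC3L the 1 member called.

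**Figure D1:**
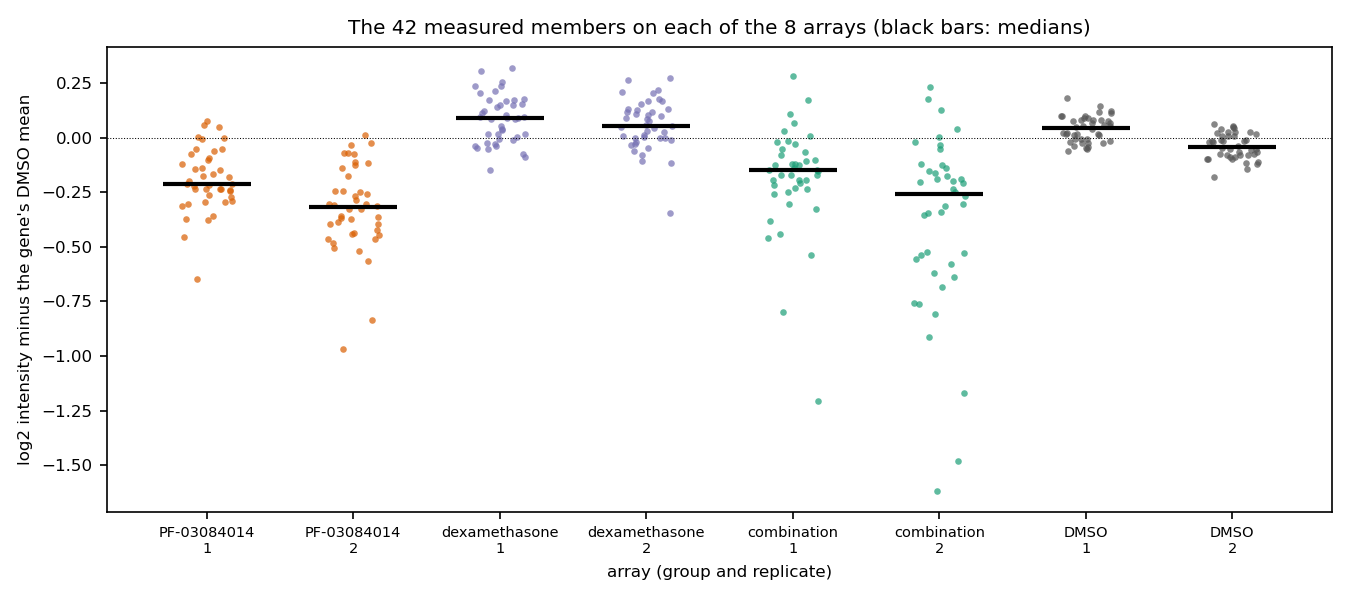
Each point is 1 of the 42 measured genes on 1 array: the vertical axis gives its log2 intensity minus the mean of its 2 DMSO arrays, and the horizontal axis the array, by group and replicate. The medians (black bars) are -0.21 and -0.32 for PF-03084014, 0.09 and 0.05 for dexamethasone, -0.15 and -0.26 for the combination and 0.04 and -0.04 for DMSO; the points spread most on combination array 2.

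Dexamethasone alone gave the opposite sign in most of these genes, but at sizes close to the replicate spread. The difference was above 0 in 32 of 42 and below 0 in 10 (43.7% of all genes, 40.6% of the brighter ones), with a median of 0.07 (0.01 over all genes), and both dexamethasone arrays lay above both DMSO arrays in 19 (45.2%), against 26.1% of all genes and 33.7% of the brighter ones. Both lay below in 4, against 18.9% of all genes. None was called (0.0152% of all genes were called lower and 0.086% higher), 2 were higher at an unadjusted p under 0.05, and the smallest adjusted p was 0.444, for NOP2.

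In the combination 6 genes fell against DMSO and 0 rose: BYSL (-1.19), POLR3G (-0.86), LYAR (-0.61), UTP4 (-0.48), NOC3L (-0.47) and NOP14 (-0.23). These 6 are 14.3% of the 42, beside 5.54% of all genes called lower and 9.26% of the brighter genes; 6.43% of all genes were called higher. The difference was below 0 in 37, against 41.1% of all genes and 48% of the brighter ones, the median was -0.20 (0.06 over all genes), and both combination arrays lay below both DMSO arrays in 31, against 22.5% of all genes and 29.9% of the brighter ones. Both lay above in 2, against 30.3%. Leaving out combination array 2 moved 25 of the 42 differences by over 1.5 times, 18 of them toward 0, and 3 changed sign (GAR1, NOP10 and HEATR1). The calls were then BYSL and NOC3L and the median was -0.15; without combination array 1 there were 19 calls, without DMSO array 1 only BYSL, and without DMSO array 2 UTP4 and BYSL.

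Set against dexamethasone, which isolates the inhibitor in the presence of the glucocorticoid, 9 of the genes fell in the combination and 0 rose, beside 3.99% of all genes called lower, 6.7% of the brighter ones, and 3.27% of all genes called higher. They were BYSL (-1.08), POLR3G (-0.77), NOC3L (-0.45), UTP4 (-0.44), POLR1B (-0.40), WDR12 (-0.36), NOP14 (-0.34), NOP2 (-0.32) and NAT10 (-0.25). The median over the 42 was -0.30 (0.04 over all genes), 38 stood below 0 (43% of all genes, 52% of the brighter ones), and both combination arrays lay below both dexamethasone arrays in 31, against 24.4% of all genes and 33.7% of the brighter ones. In 0 did both lie above, against 29.2%. Without combination array 2 the calls were NOP14, BYSL and NOC3L and the median was -0.24, and 20 differences moved by over 1.5 times; without combination array 1 there were 24 calls. Leaving out either dexamethasone array left 0 calls, and leaving out any array of the other groups left 1 or 2.

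Set against PF-03084014, the combination had a median of 0.03, equal to that of all genes (-0.01 over the brighter ones). Of the 42, 18 lay below 0, against 43.5% of all genes and 52.1% of the brighter ones. This rests on combination array 2: without it the median was 0.09, 9 of 42 lay below 0, and 11 differences had changed sign. Both combination arrays lay below both PF-03084014 arrays in 4 (21% of all genes, 28.1% of the brighter ones) and above them in 12 (24.4%). Only BYSL was called, lower, where 1.77% of all genes were called lower and 1.1% higher. Without combination array 2 the number was 0, and without combination array 1 it was 8.

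PF-03084014 against DMSO and the combination against dexamethasone share no array, so both can be set side by side. In 36 of 42 genes both differences were below 0. The share over all genes and the count without combination array 2 were not taken, so this count only describes the 42. Across the 42 genes the Pearson correlation of both differences was 0.60, and over the 10793 brighter genes it was 0.66. Genes of one set of arrays are not independent, so these values are a description. In 25 genes the difference was lower in the presence of dexamethasone. The interaction, which tests whether the inhibitor's effect differed between the backgrounds, was called for 0 of the 42 and 0% of all genes by limma; at an unadjusted p under 0.05 it held 1 of the 42, BYSL, and 1798 of all genes. It lay below 0 in 25 of the 42 (59.5%), in 49.5% of all genes and in 60.3% of the brighter genes, a share near that of the members. Without combination array 2 it lay below 0 in 18 of the 42. The median interaction was -0.07 (-0.06 over the brighter genes) with all arrays and 0.03 without combination array 2. Some single values rest on that array: without it the interaction of NOC2L went from -0.57 to 0.15 and that of MRTO4 from -0.49 to -0.02. For RRP9 it went from -0.62 to -0.36, and for BYSL from -0.80 to -0.81.

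**Figure D2:**
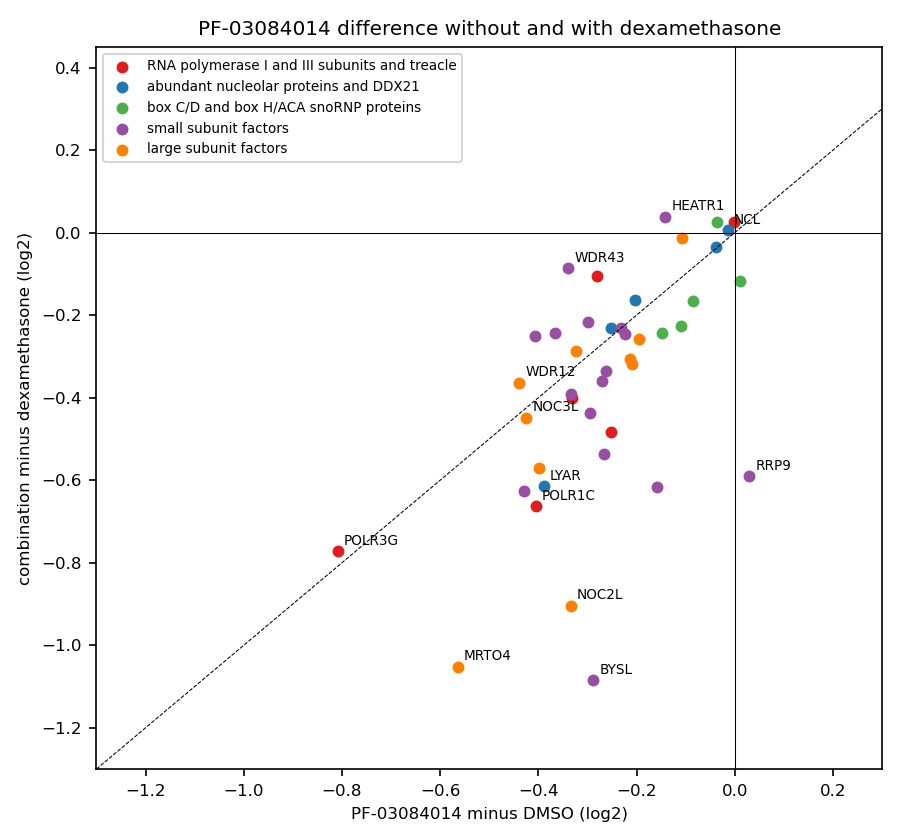
Each point is 1 of the 42 genes, coloured by role: the horizontal axis is PF-03084014 minus DMSO and the vertical axis combination minus dexamethasone, both in log2 units, and the dashed line marks equal differences. Points gather at the lower left, with 36 genes below 0 on both axes. BYSL, MRTO4, NOC2L and RRP9 lie furthest below the line. Without combination array 2 the interaction is -0.81 for BYSL, -0.02 for MRTO4, 0.15 for NOC2L and -0.36 for RRP9.

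The inhibitor's effect averaged over both backgrounds, a contrast added after the values had been seen, uses all 8 arrays. It was below 0 in 41 of 42 genes (43.9% of all genes, 47.5% of the brighter ones), with a median of -0.29 (0.04 over all genes), and 14 genes fell and 0 rose, beside 4.63% of all genes called lower, 7.63% of the brighter ones, and 5.13% of all genes called higher. The 14 were POLR1B, POLR3G, NOLC1, LYAR, NOP14, UTP4, UTP15, DDX10, NAT10, BYSL, RRP12, NOP2, WDR12 and NOC3L. Without combination array 2 the number was also 14, of which 13 were shared. It was 28 without combination array 1, 1 without either dexamethasone array, 7 and 3 without PF-03084014 array 1 or 2, and 5 and 9 without DMSO array 1 or 2. In 26 of the 42 genes (61.9%) all 4 arrays with the inhibitor lay below all 4 without it, which 7.15% of all genes and 11.4% of the brighter genes showed; the reverse order was seen in 0, against 8.36% of all genes. Leaving out an array can only keep or raise the count of 26, and without combination array 2 it was 30, against 8.66% of all genes. With quantile normalization the count was 24 (7.09% of all genes), and with the mean of all probe sets 22 (6.84%). With arrays shifted to a common median it was 30 (8.11%).

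**Figure D3:**
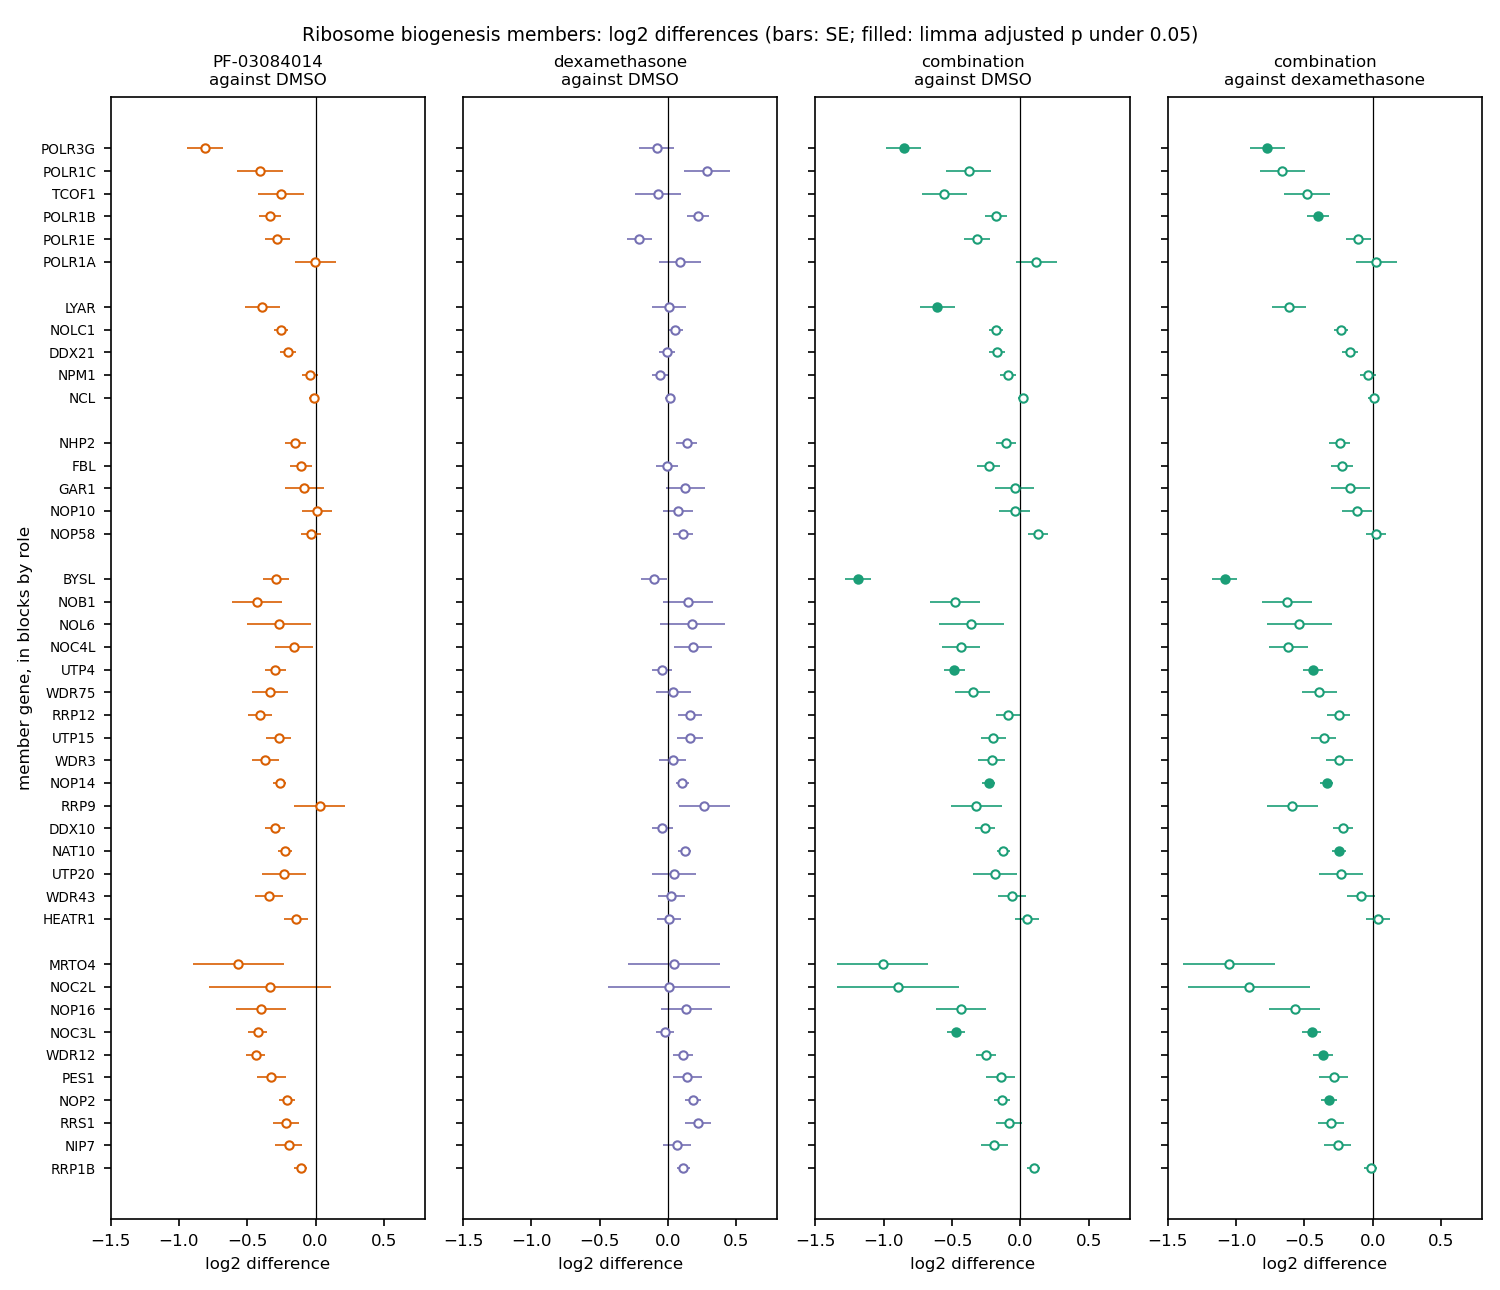
Log2 differences (horizontal axes) of the 42 genes, in blocks by role from the polymerase subunits at the top to the large subunit factors at the bottom, in 4 comparisons; bars are standard errors and filled points are called. The filled points number 0, 0, 6 and 9 from left to right, and every one of them lies below 0.

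Among the polymerase genes, POLR3G had the lowest difference with PF-03084014. It encodes a subunit of RNA polymerase III that can be replaced by its paralog POLR3GL, the form typical of resting and differentiated cells. POLR3G had 327 and 262 with PF-03084014, 462 and 506 with dexamethasone, 295 and 272 with the combination, and 529 and 496 with DMSO. The 4 arrays with the inhibitor lay below the 4 without it, at 0.571 times the DMSO level for PF-03084014 (-0.81 ± 0.13, adjusted p = 0.0723) and 0.553 times for the combination (-0.86 ± 0.13, adjusted p = 0.0171). Its second probe set, at a mean of 40.8, stood at -0.64 and -0.57 in the same comparisons, and another, at a mean of 14.5 and so close to the floor, stood at 0.38 and 0.14. POLR3GL, which is not among the 44, moved the other way: it had 2110 and 2279 with PF-03084014, 2090 and 2145 with dexamethasone, 2624 and 2658 with the combination, and 1811 and 1766 with DMSO. It rose by 0.56 ± 0.047 with the combination (adjusted p = 0.00429) and stood at 0.29 with PF-03084014, not called (adjusted p = 0.0733).

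The subunits of RNA polymerase I differed among themselves. POLR1B, the second largest subunit, had 917 and 808 with PF-03084014, 1222 and 1306 with dexamethasone, 978 and 938 with the combination, and 1124 and 1043 with DMSO, and it fell by 0.40 ± 0.081 in the combination against dexamethasone (adjusted p = 0.0492). That value rests on the brightest probe set: the other 3 of POLR1B, at mean intensities of 327, 273 and 195, stood at 0.54, 0.07 and -0.06 in this comparison. POLR1C, shared by polymerases I and III, had 681 and 592 with PF-03084014, 1039 and 1010 with dexamethasone, 724 and 578 with the combination, and 954 and 741 with DMSO. Its inhibitor arrays were the 4 lowest, but DMSO array 2 was close to them, and no difference was called. POLR1E, a subunit specific to polymerase I, had 996 and 950 with PF-03084014, 1122 and 928 with dexamethasone, 940 and 957 with the combination, and 1168 and 1193 with DMSO, so that all treated arrays lay below both DMSO arrays. The largest subunit, POLR1A, was dim, between 188 and 242 on the 8 arrays, and its groups overlapped in each comparison with DMSO. A second POLR1A probe set of almost equal intensity stood at -0.27 with PF-03084014, where the one used stood at -0.00.

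TCOF1 encodes treacle, a nucleolar scaffold required for polymerase I transcription. It had 904 and 814 with PF-03084014, 995 and 947 with dexamethasone, 828 and 583 with the combination, and 1003 and 1040 with DMSO. The combination difference of -0.56 ± 0.17 was not called (adjusted p = 0.10), and the 2 combination arrays were far apart. Without array 2 it was -0.30. A second probe set with closer combination arrays, at 576 and 535 against 690 and 802 with DMSO, stood at -0.42. The dim one, at a mean of 50.3, stood at -0.18.

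The abundant nucleolar proteins ranged from NCL and NPM1, with differences close to 0, to LYAR, one of the 6 that fell. NCL encodes nucleolin, a histone and RNA chaperone that makes up much of the nucleolus; it lay between 10904 and 11397 on all 8 arrays. Its differences from DMSO were -0.01 with PF-03084014 and 0.02 with the combination, each with a standard error of 0.037. NPM1, encoding the chaperone nucleophosmin, lay between 11932 and 13390. These genes were among the brightest on the arrays, with 0.668% and 0.379% of genes brighter than NCL and NPM1. The brightest NPM1 probe set stood at -0.04 with PF-03084014 and -0.09 with the combination (-0.02 without combination array 2). The second, at a mean of 11062, stood at -0.09 and -0.15, and the third, at a mean of 5795, at -0.21 and -0.29. Over the 42 genes, level and difference had a rank correlation of 0.33 with PF-03084014 and 0.42 with the combination. Over the 10793 brighter genes it was 0.01 and -0.12. A cause of this relation was not tested.

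LYAR, a nucleolar protein that promotes growth and ribosomal RNA processing, had 1201 and 1081 with PF-03084014, 1454 and 1544 with dexamethasone, 1086 and 883 with the combination, and 1599 and 1393 with DMSO. It fell by 0.61 ± 0.13 with the combination (adjusted p = 0.0393), and its other probe set, of nearly the same intensity, stood at -1.09. The groups with and without the inhibitor did not overlap. NOLC1, which chaperones snoRNPs between the Cajal body and the nucleolus, had 5009 and 4782 with PF-03084014, 5964 and 6149 with dexamethasone, 4970 and 5350 with the combination, and 5726 and 5935 with DMSO. NOLC1 fell by 0.24 ± 0.037 for the inhibitor averaged over both backgrounds (adjusted p = 0.0209), and its other 2 probe sets stood at -0.44 and -0.88. The RNA helicase gene DDX21 had 5699 and 5282 with PF-03084014 and 5867 and 5372 with the combination, against 6273 and 6302 with dexamethasone and 6369 and 6264 with DMSO, without overlap and without a call (averaged -0.18, adjusted p = 0.056).

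The 5 snoRNP proteins had the smallest differences of the 5 roles: the median was -0.08 with PF-03084014, -0.04 with the combination, both against DMSO, and none was called in any comparison. Without combination array 2 the combination differences ran from -0.12 for FBL and -0.05 for NHP2 to 0.11 for NOP10 and 0.17 for GAR1. Fibrillarin (FBL), the methyltransferase of box C/D snoRNPs, had 8048 and 7868 with PF-03084014, 8805 and 8292 with dexamethasone, 7879 and 6775 with the combination, and 8336 and 8828 with DMSO. NOP58, another core protein of the box C/D particles, had 4724 and 4487 with PF-03084014, 5007 and 5154 with dexamethasone, 4818 and 5545 with the combination, and 4769 and 4666 with DMSO, and with 0.13 ± 0.073 it was the highest of the 42 in the combination against DMSO; without combination array 2 it stood at 0.03. Of the box H/ACA proteins, which guide pseudouridylation, NHP2 had 5424 and 4739 with PF-03084014 and 5410 and 5047 with the combination, against 6320 and 6044 with dexamethasone and 5596 and 5639 with DMSO. NHP2 kept the inhibitor arrays below the others, whereas the arrays of GAR1 (2051 to 2739) and NOP10 (4375 to 5498) were mixed.

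The small subunit factors included the largest fall. BYSL encodes bystin, which is needed for maturation of the small subunit precursor. It had 1540 and 1387 with PF-03084014, 1678 and 1644 with dexamethasone, 774 and 793 with the combination, and 1940 and 1642 with DMSO. The 2 combination arrays were close to each other and lay at 0.439 times the DMSO level (-1.19 ± 0.093, limma adjusted p = 0.00388), 0.472 times the dexamethasone level (-1.08, adjusted p = 0.0120) and 0.536 times the PF-03084014 level (-0.90, adjusted p = 0.0209). BYSL was the 1 gene of the 42 called in the combination against PF-03084014, as given above. The differences of the single compounds from DMSO were -0.29 for PF-03084014 and -0.10 for dexamethasone, neither called, and the interaction of -0.80 had an adjusted p of 0.315. Without combination array 2 the fall against PF-03084014 was -0.92 (adjusted p = 0.0538), and 0 genes were called; leaving out either array of PF-03084014 or of dexamethasone also ended that call. Against DMSO the call held without any single array.

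**Figure D4:**
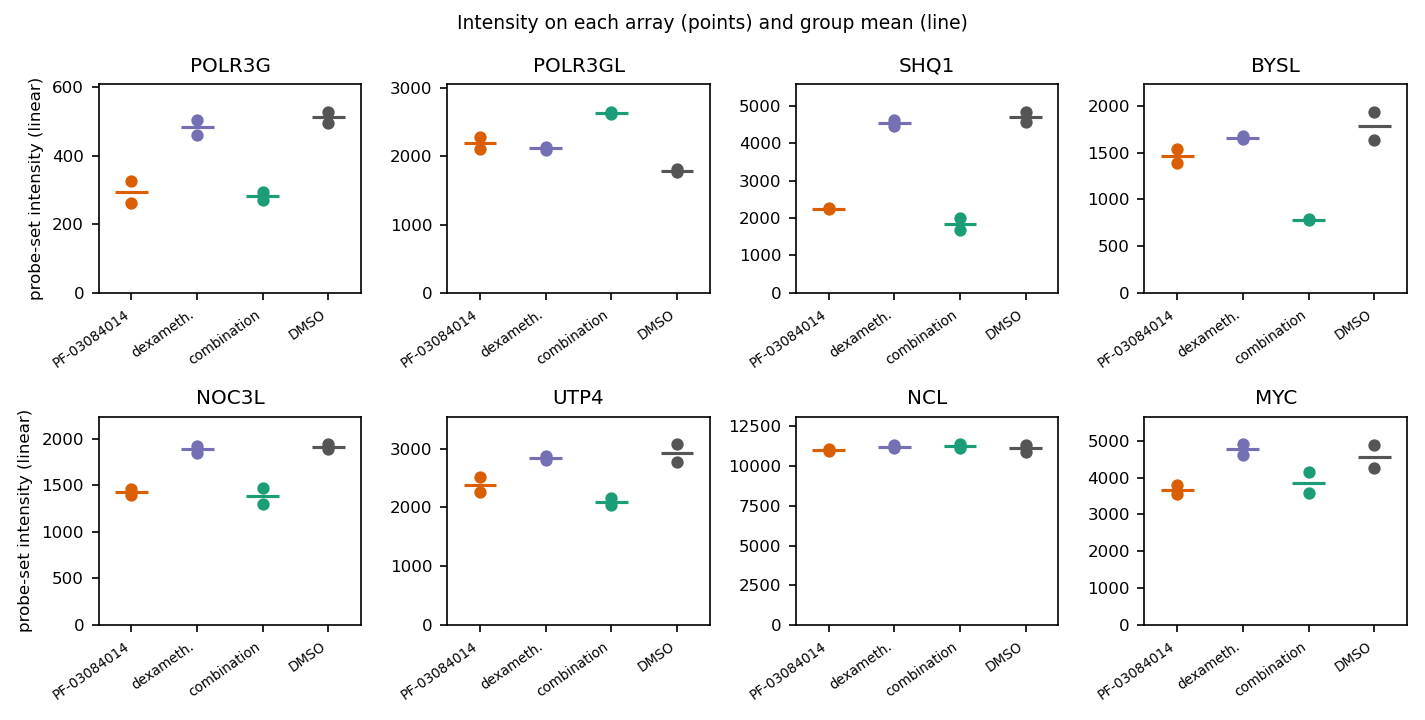
Linear intensity (vertical axes, from 0) of 8 genes on each array, with a line at the group mean. BYSL is low in the combination alone, at 774 and 793; POLR3G, SHQ1, NOC3L and UTP4 are low in both groups with the inhibitor; POLR3GL is highest in the combination; NCL is level, between 10904 and 11397; MYC lies lower with the inhibitor but its groups are close.

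UTP4, UTP15, WDR43, WDR75 and HEATR1 encode subunits of the complex that first binds the nascent ribosomal RNA precursor and is known to support its transcription. UTP4 had 2513 and 2268 with PF-03084014, 2876 and 2801 with dexamethasone, 2157 and 2036 with the combination, and 3082 and 2779 with DMSO. It fell by 0.48 ± 0.076 in the combination (adjusted p = 0.0187), and its second probe set stood at -0.33. UTP15 fell for the inhibitor averaged over both backgrounds (-0.31 ± 0.066, limma adjusted p = 0.0454), a call made in 4 of 18 alternatives. It had 361 and 344 with PF-03084014 and 371 and 370 with the combination, against 470 and 480 with dexamethasone and 460 and 392 with DMSO. Its second probe set, at a mean of 235, stood at -0.11 averaged and at -0.004 in the combination against DMSO. WDR43, WDR75 and HEATR1 were not called. WDR75 had both groups with the inhibitor below the others, while WDR43 stood at -0.34 with PF-03084014 and -0.06 with the combination, and HEATR1 at -0.14 and 0.05. Without combination array 2 the combination values were -0.12 and -0.08. A second HEATR1 probe set, at a mean of 1142, stood at -0.26 with PF-03084014 and -0.13 with the combination. Another, at a mean of 308, stood at -0.10 and 0.07.

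NOP14, a scaffold of the small subunit precursor, had 1179 and 1105 with PF-03084014, 1460 and 1481 with dexamethasone, 1145 and 1187 with the combination, and 1387 and 1348 with DMSO. Its replicates lay close together, and in the combination it fell both against DMSO (-0.23 ± 0.048, adjusted p = 0.0383) and against dexamethasone (-0.34 ± 0.048, adjusted p = 0.0235). NAT10, the acetyltransferase of small subunit ribosomal RNA, had 1780 and 1726 with PF-03084014, 2214 and 2240 with dexamethasone, 1876 and 1878 with the combination, and 1962 and 2132 with DMSO, and fell by 0.25 ± 0.049 in the combination against dexamethasone (adjusted p = 0.0478). The helicase gene DDX10 and the late assembly gene RRP12 fell for the inhibitor averaged over both backgrounds (-0.26 for DDX10 and -0.33 for RRP12). DDX10 had 1140 and 1046 with PF-03084014, 1295 and 1316 with dexamethasone, 1194 and 1056 with the combination, and 1354 and 1331 with DMSO. RRP12 had 332 and 319 with PF-03084014, 508 and 458 with dexamethasone, 392 and 420 with the combination, and 416 and 447 with DMSO, so it was low with PF-03084014 alone and overlapped DMSO in the combination. Its other 4 probe sets had means of 41.8 or less, close to the floor.

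NOB1, the endonuclease that makes the final cut of the small subunit RNA, had 1116 and 1035 with PF-03084014, 1668 and 1539 with dexamethasone, 1263 and 852 with the combination, and 1461 and 1433 with DMSO. With -0.43 ± 0.18 it was the lowest small subunit factor with PF-03084014, and it was not called. RRP9, a protein of the snoRNP that guides the early cleavages, was the highest of the 42 with PF-03084014: it had 197 and 193 with PF-03084014, 238 and 222 with dexamethasone, 183 and 128 with the combination, and 193 and 189 with DMSO. Of the 16 small subunit factors 15 had both PF-03084014 arrays below both DMSO arrays, RRP9 being the exception. Of all genes 20.8% had this order, and 24.1% of the brighter ones. NOC4L, NOL6 and WDR3, components of the early small subunit precursor, stood at -0.16, -0.27 and -0.37 with PF-03084014 and at -0.43, -0.36 and -0.21 with the combination, and none was called. NOC4L stood at -0.25 and NOL6 at -0.03 without combination array 2.

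Promoter sequence is shown for the genes whose upstream region holds CACGTG, the E-box that MYC with its partner MAX is known to bind. RefSeq promoters (GRCh38.p14, the first listed start of each gene, 250 bases before to 50 after it) were matched for 34 of the 42, all but TCOF1, NOLC1, RRP1B, NOP58, RRS1, POLR3G, POLR1E and RRP12. CACGTG, its own reverse complement and so counted once for both strands, was present in 14 of these 34 (41.2%), in 7.43% of the 27305 promoters of the table and in 10.7% of the 8861 promoters of genes with a mean intensity of at least 100. Upstream of the start alone it was found in 4 of 34 (11.8%), against 6.49% of the table. These 4 were the genes of UTP4, of UTP20, which acts in early small subunit processing, of NAT10 and of the box H/ACA protein NOP10. The 250 bases upstream of each start are given 5′ to 3′ on the gene's strand, with CACGTG in capitals: UTP4 at chr16:69132399-69132648 (plus strand), UTP20 at chr12:101279855-101280104 (plus), NAT10 at chr11:34105379-34105628 (plus) and NOP10 at chr15:34343137-34343386 (minus).
UTP4: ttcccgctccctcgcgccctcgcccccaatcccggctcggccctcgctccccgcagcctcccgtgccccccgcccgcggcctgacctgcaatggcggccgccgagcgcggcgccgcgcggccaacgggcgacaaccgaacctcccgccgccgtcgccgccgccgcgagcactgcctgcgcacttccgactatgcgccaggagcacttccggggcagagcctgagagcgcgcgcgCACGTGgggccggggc
UTP20: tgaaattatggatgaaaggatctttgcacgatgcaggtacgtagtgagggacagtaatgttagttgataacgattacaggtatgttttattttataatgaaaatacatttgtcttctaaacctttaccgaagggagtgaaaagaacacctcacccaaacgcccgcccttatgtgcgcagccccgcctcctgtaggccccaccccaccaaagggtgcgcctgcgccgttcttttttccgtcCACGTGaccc
NAT10: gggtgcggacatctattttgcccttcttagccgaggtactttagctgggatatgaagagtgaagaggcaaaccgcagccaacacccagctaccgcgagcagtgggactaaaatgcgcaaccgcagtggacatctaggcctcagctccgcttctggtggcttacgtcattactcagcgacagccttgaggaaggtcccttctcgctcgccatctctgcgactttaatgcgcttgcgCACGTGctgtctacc
NOP10: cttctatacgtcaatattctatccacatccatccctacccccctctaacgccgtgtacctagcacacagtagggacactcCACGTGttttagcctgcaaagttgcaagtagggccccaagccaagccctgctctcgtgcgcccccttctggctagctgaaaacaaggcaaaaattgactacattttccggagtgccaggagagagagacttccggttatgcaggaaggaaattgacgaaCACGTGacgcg

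In UTP4, UTP20 and NAT10 the motif began 16, 10 and 15 bases before the start, and in NOP10 170 and 11 bases before it. In RRP9 it spanned the start, and in the remaining 9 genes (FBL, NOP14, WDR43, NOL6, BYSL, NOP2, PES1, NOC3L and MRTO4) it began at positions 4 to 36, counting the start base as 1. A match is only a run of letters, not a shown binding site. Genes with the motif (14) had a median of -0.26 with PF-03084014 and -0.23 with the combination, and those without it (20) had -0.28 and -0.20. In the combination 4 of the 14 fell against DMSO and 6 against dexamethasone, beside 1 and 2 of the 20. Of all genes, 5.54% and 3.99% were called lower in these comparisons. The difference in these counts was not tested. Combination array 2 weighed on both sets. Without it NOL6, with the motif, moved from -0.36 to -0.03 against DMSO, and NOC2L, without the motif, from -0.89 to -0.17. The combination medians and counts of the 2 sets were not taken without that array, so their order is not shown to hold. Of the 4 printed genes, UTP4 fell in the combination against DMSO and NAT10 against dexamethasone. UTP20 (377 and 303 with PF-03084014, 431 and 388 with dexamethasone, 391 and 311 with the combination, 392 and 402 with DMSO) stood at -0.19 in the combination against DMSO and NOP10 at -0.04, neither called, and without combination array 2 at -0.02 and 0.11.

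All 10 large subunit factors measured had a difference below 0 with PF-03084014 (46.8% of all genes), with a median of -0.33. In 9 both arrays lay below those of DMSO, against 20.8% of all genes and 24.1% of the brighter ones. NOC3L, a factor of early and intermediate large subunit precursors that also has a known part in DNA replication licensing in yeast, had 1400 and 1460 with PF-03084014, 1854 and 1925 with dexamethasone, 1472 and 1303 with the combination, and 1947 and 1890 with DMSO. Groups with the inhibitor lay near 0.745 times the DMSO level with PF-03084014 and 0.722 times with the combination, where it fell by 0.47 ± 0.067 (adjusted p = 0.0147). Dexamethasone arrays lay with DMSO. WDR12 and PES1 encode partners in the complex that processes the spacer between the large subunit RNAs. WDR12 had 2160 and 1932 with PF-03084014, 2974 and 3002 with dexamethasone, 2420 and 2230 with the combination, and 2846 and 2693 with DMSO, and fell by 0.36 ± 0.072 in the combination against dexamethasone (adjusted p = 0.0473). With PF-03084014 against DMSO it stood at -0.44 (adjusted p = 0.0763), and its 2 dim probe sets stood at -0.36 and -0.48. PES1 had 875 and 719 with PF-03084014 and 926 and 871 with the combination, against 1103 and 1087 with dexamethasone and 1045 and 942 with DMSO, and was not called.

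NOP2, a methyltransferase of large subunit ribosomal RNA, had 991 and 938 with PF-03084014, 1249 and 1284 with dexamethasone, 1021 and 1012 with the combination, and 1164 and 1065 with DMSO. Its 4 groups were ordered without overlap between inhibitor arrays and the rest, and it fell by 0.32 ± 0.058 in the combination against dexamethasone (adjusted p = 0.0410). MRTO4, which resembles a ribosomal stalk protein and occupies its place during assembly, had 1094 and 754 with PF-03084014, 1431 and 1340 with dexamethasone, 925 and 482 with the combination, and 1397 and 1292 with DMSO. Its difference of -1.01 ± 0.34 in the combination was not called (adjusted p = 0.123) and became -0.54 without array 2. A second probe set with closer replicates, at 290 and 255 with the combination against 613 and 578 with DMSO, stood at -1.13. NOC2L, a partner of NOC3L in yeast, had 1118 and 411 on the combination arrays against 1340 and 1183 on the DMSO arrays, so its -0.89 ± 0.45 rests on array 2, without which it was -0.17. RRP1B had the highest value of this role, with 3785 and 3758 with PF-03084014, 4222 and 4566 with dexamethasone, 4259 and 4440 with the combination, and 4046 and 4085 with DMSO. It stood at -0.11 with PF-03084014 and at 0.10 with the combination, and was not called in either. NOP16, NIP7 and RRS1, which act in early large subunit assembly, stood at -0.40, -0.20 and -0.21 with PF-03084014 and at -0.43, -0.19 and -0.08 with the combination, again without a call. NOP16 stood at -0.23 and RRS1 at -0.15 without combination array 2.

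Compared over groups, the lowest mean belonged to PF-03084014 or to the combination in 42 of 42 genes. Those 2 groups were the 2 lowest in 34, and dexamethasone was the highest in 28. These orders were counted for the 42 genes alone and with all arrays. Shares over all genes and counts without combination array 2 were not taken, so the counts only describe these group means. Of the 25 genes with further probe sets, these numbered 44, and 33 of them had a difference below 0 with PF-03084014. In the combination 28 lay below 0 against DMSO and 31 against dexamethasone. Among the 26 probe sets with a mean of at least 100 the numbers were 23, 18 and 21 in the same order. Shares for the further probe sets of all genes were not taken.

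Outside the 44, 132 of 141 other genes of the pathway were measured, and their medians lay below 0 with PF-03084014 and with the combination, closer to 0 than those of the 42. With PF-03084014 the median was -0.12 and 105 of 132 (79.5%) lay below 0, against 46.8% of all genes; 1 fell and 0 rose. With dexamethasone the median was 0.08 with 0 called, and with the combination it was -0.14, with 15 genes (11.4%) that fell and 4 (3.03%) that rose, beside 5.54% and 6.43% of all genes and 9.26% and 10.4% of the brighter ones. The median was -0.07 without combination array 2, 14 fell and 5 rose, and 11 of the calls were shared with those from all arrays. The call with PF-03084014 was SHQ1, an assembly chaperone of box H/ACA particles: it had 2260 and 2245 with PF-03084014, 4641 and 4458 with dexamethasone, 1990 and 1684 with the combination, and 4572 and 4851 with DMSO. SHQ1 fell with PF-03084014 (-1.06 ± 0.085, adjusted p = 0.0186) and with the combination (-1.36 ± 0.085, adjusted p = 0.00306).

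**Figure D5:**
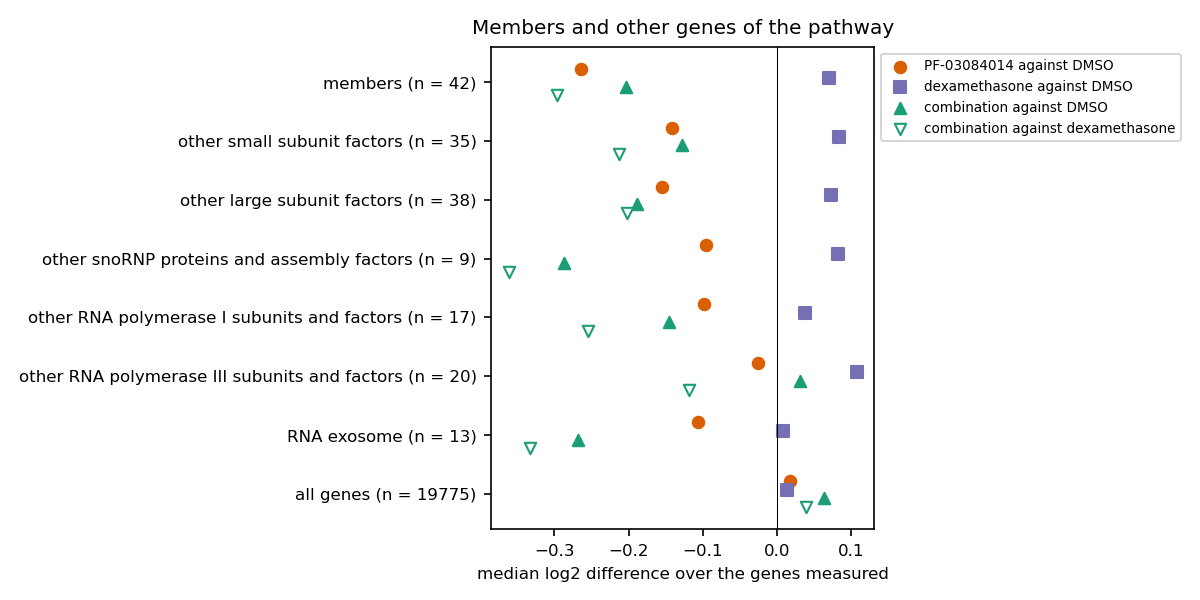
Median log2 difference (horizontal axis) of the 42 genes, of 6 lists of other pathway genes and of all 19775 genes, in 4 comparisons. Medians with PF-03084014 lie between -0.26 for the 42 genes and -0.03 for the other RNA polymerase III genes, against 0.02 for all genes, and the dexamethasone medians lie between 0.01 and 0.11.

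Among 35 other small subunit factors, 3 fell in the combination against DMSO (UTP18, IMP3 and RRP7A), or 8.57%, a share near that of the brighter genes, and 0 rose; without combination array 2 UTP18 fell and UTP3 rose. UTP18, of the second complex to join the precursor, had 3246 and 3013 with PF-03084014, 3934 and 3837 with dexamethasone, 2789 and 2420 with the combination, and 3952 and 3830 with DMSO, and fell by 0.58 ± 0.078. Among 38 other large subunit factors 5 (13.2%) fell (RPF2, RRP8, GTPBP4, RBM28 and DDX55) and 2 rose (NOL8 and DDX51), and of these DDX55, NOL8 and DDX51 were also called without combination array 2; DDX51, a helicase gene, had 1094 and 1187 with the combination, against 800 and 726 with DMSO. Of 13 genes of the RNA exosome, the nuclease that trims precursor RNA, 4 (30.8%) fell, with and without combination array 2 (EXOSC2, EXOSC6, EXOSC8 and EXOSC9), with EXOSC2 at 846 and 781 in the combination, against 1231 and 1190 in DMSO. Besides SHQ1, the helicase RUVBL2 fell and the assembly factor ZNHIT6 rose among 9 snoRNP genes; without combination array 2 NAF1, SHQ1 and RUVBL2 were called. Of 17 other polymerase I genes only TBP, which serves all 3 polymerases, fell, and of 20 other polymerase III genes only POLR3GL was called in the combination against DMSO. POLR3GL was also called without combination array 2, where TBP was not and TAF1A fell. UBTF, which keeps ribosomal DNA open for polymerase I, stood at 0.29 with PF-03084014 and rose by 0.31 for the inhibitor averaged over both backgrounds (adjusted p = 0.0414).

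MYC itself had 3791 and 3558 with PF-03084014, 4916 and 4628 with dexamethasone, 4145 and 3572 with the combination, and 4878 and 4256 with DMSO. Its 4 arrays with the inhibitor lay below the 4 without it, at -0.31 ± 0.10 with PF-03084014 (adjusted p = 0.280) and -0.31 ± 0.071 averaged over both backgrounds (adjusted p = 0.0572), so it was not called. Beside these values the medians of the 42 genes were -0.26 and -0.29; a relation between them was not tested.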

How the data were processed

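Per the labels' protocols, total RNA of 8 samples was amplified from its 3 prime end, labelled and hybridised to Affymetrix arrays. The authors deposited linear intensity values for 54675 probe sets; how they were summarised and normalized is not given in the sources used here. Intensities below 16 were set to 16 and converted to log2. Of the probe sets, 41097 carried 1 gene in the platform annotation, 1801 listed several and 11777 none, and each of 19775 genes was represented by its probe set with the highest mean. All genes were fitted with limma 3.58.1 in R 4.3.3, with a mean per group (4 residual and 1.35 prior degrees of freedom), an intensity trend and two-sided Benjamini-Hochberg adjustment; the fit was tested on simulated data. With 2 arrays per group, a difference had a median standard error of 0.0943 for the 42 genes, against 0.177 for all genes. The members and lists were chosen with earlier results of these data known. Genes given with values on every array were those called, those with the smallest p where none was called, the lowest and highest of each role, the polymerase genes, NCL, NPM1, FBL and TCOF1; DDX21, NHP2, UTP15, UTP20 and PES1 were added after their values were seen, as were UTP3, NAF1 and TAF1A, the averaged contrast and the counts of arrays that did not overlap. Alternatives covered scaling, floor, filter, choice of probe set, error model, replicate block and the omission of single arrays.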

Additional observations from a re-analysis of the deposited data

How the results depend on the processing

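The median difference of the 42 genes kept its direction under all alternatives run for PF-03084014 against DMSO and for the combination against DMSO and against dexamethasone, but the number of calls did not hold. For PF-03084014, 3 genes were called with a pseudocount of 16, 3 without genes of mean intensity under 100, and 5 with array weights. For the combination against DMSO, 2 were called with arrays shifted to a common median, 2 with array weights and 0 with only the groups compared, a fit with fewer arrays that called 0 of all genes. For the combination against dexamethasone the counts were 1 (common median), 4 (floor of 64), 16 (dim genes left out), 4 (mean of probe sets), 3 (no intensity trend), 1 (array weights) and 0 (only the groups compared). Against PF-03084014 they were 0 with array weights and 0 with only the groups compared. For the contrast averaged over both backgrounds they were 2 (common median), 24 (pseudocount) and 26 (dim genes left out). Except for the groups compared alone, the cause was not tested. The common median, which lowers combination array 2, put the medians at -0.33, -0.45 and -0.10 for the combination against DMSO, dexamethasone and PF-03084014 and at -0.22 for the interaction. It moved the median of all genes by -0.11 in the combination against dexamethasone and by -0.14 in the interaction. Lower genes made up 78.1% of all calls for PF-03084014 under it, against 42.3% without it, and 64.4% against 46.3%, 79.4% against 55.0% and 63.8% against 47.4% for the combination against DMSO, against dexamethasone and for the averaged contrast. With the mean of all probe sets 2 genes, against 4, had both dexamethasone arrays below both DMSO arrays. POLR1B changed sign in the combination against dexamethasone (0.038, mean of probe sets) and in the averaged contrast (0.0021, without probe sets that can cross-hybridise), and RRP12 in the averaged contrast (0.020 and 0.45 in the same settings), where dimmer probe sets of these genes enter.

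Leaving out 1 array at a time gave 0 to 1 calls for PF-03084014, 1 to 19 for the combination against DMSO, 0 to 24 against dexamethasone, 0 to 8 against PF-03084014, 0 to 2 for the interaction and 1 to 28 for the averaged contrast; the highest values came without combination array 1. Medians ranged from -0.32 to -0.21, -0.26 to -0.15, -0.33 to -0.24, -0.05 to 0.11, -0.12 to 0.03 and -0.32 to -0.25 in the same order, and from 0.05 to 0.11 for dexamethasone, with 0 calls throughout. BYSL in the combination against DMSO was called in 18 of 19 alternatives. The other calls there held in fewer: NOC3L in 15, POLR3G in 13, UTP4 in 11, LYAR in 7 and NOP14 in 4. Against dexamethasone BYSL was called in 16 of 19, NOC3L in 10, NOP14 in 9 and POLR3G in 8. In that comparison UTP4 was called in 6, WDR12 in 5, NOP2 in 4, NAT10 in 4 and POLR1B in 3. Against PF-03084014 BYSL was called in 12 of 19. Replicate numbers shared by the groups pair arrays weakly: correlations of their deviations ran from 0.0524 to 0.208. With replicate as a block, 0, 0, 5, 9, 1 and 0 genes were called in the 6 planned comparisons and 18 in the averaged one.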
